A study of Mus musculus with 102 samples.

Results

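The Slc25 genes encode the mitochondrial carriers, and their transcripts were followed here across the mouse central nervous system. Every probe set annotated with a single gene symbol of the form Slc25a plus a number was taken, which gave 93 probe sets for 44 genes out of 18193 genes and 45037 probe sets on the array. Each gene was read from the probe set with the highest mean over 48 regions, and 21 of the 44 genes had only 1 probe set. The data are Affymetrix mouse genome arrays, 2 for each of 51 regions, and were deposited as RMA-normalized log2 signals. All tissue came from male Balb/c mice 7 to 8 weeks old, kept under a light/dark cycle and then sampled in that cycle or in constant darkness. Small needle punches were taken every 4 h over 24 h, the RNA of all 6 time points and of many mice was pooled for each array, and the whole sampling was repeated for the second array, so an array shows neither a time of day nor the spread between animals. The 51 regions were 17 of the telencephalon, 6 of the thalamus, 12 of the hypothalamus, 6 of the mesencephalon, 2 of the pons, 3 of the cerebellum, 2 of the spinal cord, and the retina, pituitary and pineal (corpus pineal), the last 3 being set apart from the other 48. By the sampling dates of the study the 48 regions fall into 4 periods of 17, 18, 8 and 5 regions. Array medians lay between 7.32 and 7.46, no pair of arrays held identical values, and the number of arrays, 2 a region, limits the precision.

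Mitochondrial carriers sit in the inner mitochondrial membrane and move metabolites between the cytosol and the matrix, mostly by exchanging one solute for another. They feed the respiratory chain with substrates, export newly made ATP, bring in phosphate, iron and cofactors, and shuttle reducing equivalents and amino acids. In brain they are known for the glutamate and aspartate steps that link energy metabolism with the transmitter cycle between neurons and astrocytes. The array compares a probe set between regions, and signals of different carriers were not set against each other.

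Nearly all carriers differed between regions, as did nearly all transcripts. Of the 44 carriers 43 passed the limma F-test over the 48 regions at an adjusted p under 0.05, beside 91.1% of all probe sets, and the exception was Slc25a47 (adjusted p = 0.211). The range of a carrier, its highest minus its lowest regional mean, had a median of 0.90 on the log2 scale, against 0.89 over all probe sets. A range of at least 1 was found in 19 carriers, or 43.2%, against 44.0% of all probe sets. The spread lay among the members, with ranges from 0.34 for Slc25a31 to 3.76 for Slc25a18. When each region was compared with the other 47, 401 of 2112 pairs of carrier and region were called higher (background 13.9%) and 392 were called lower (background 14.7%). Both shares were above the background. The chosen probe sets were brighter than most, with a median signal of 9.12 against 7.41 over all probe sets. The backgrounds given here and below were not matched for signal. Differences of at least 1 were few: 14 of the 2112 pairs were higher (background 1.4%) and 8 were lower (background 0.88%), and they involved 8 carriers. Both of these shares were below the background. Against regions of the same sampling period only, 8 pairs were higher and 12 lower by at least 1. In punches of mixed tissue, fewer cells of a type and less RNA per cell cannot be told apart, which holds for every regional difference given here.

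**Figure D1:**
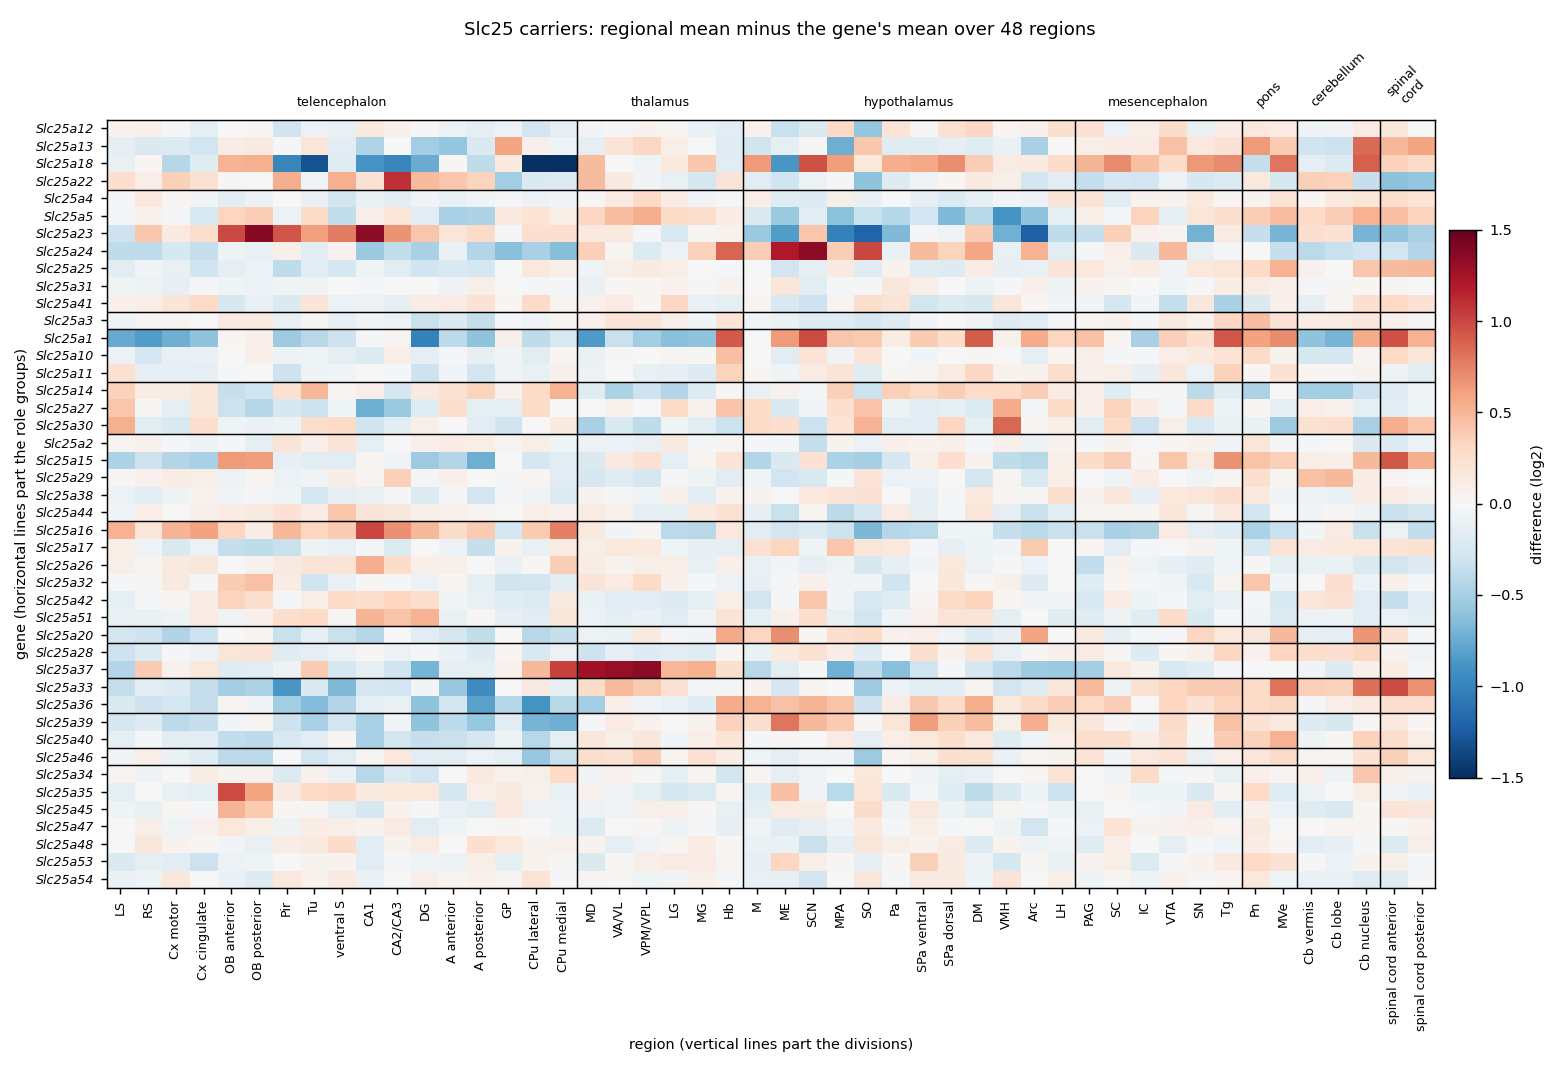
Regional means of the 44 carriers minus each gene's mean over 48 regions (log2, colour scale limited to 1.5 in either direction), with genes grouped by transported substrate and regions by division. Among the darkest cells are Slc25a18 in the caudate putamen (blue), and Slc25a37 in 3 thalamic nuclei, Slc25a23 in the olfactory bulb and CA1, Slc25a24 in the suprachiasmatic nucleus and Slc25a22 in CA2/CA3 (red).

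The widest regional profile belonged to Slc25a18, which encodes a glutamate carrier (GC2) that brings glutamate into the matrix. Its signals were 7.00 and 6.85 in the arrays of the medial caudate putamen and 7.47 and 7.55 in those of the lateral caudate putamen. The olfactory tubercle, the next lowest region, gave 8.24 and 8.62, and the globus pallidus, which lies beside the caudate putamen, gave 9.86 and 9.90. Both arrays of the medial caudate putamen lay below all arrays of the other 47 regions. Relative to the average of the other regions, the medial caudate putamen stood at -2.87 (SE 0.09, limma adjusted p = 2.87e-34) and the lateral part at -2.28 (4.84-fold, SE 0.09, adjusted p = 1.07e-29). The olfactory tubercle (-1.34, adjusted p = 2.72e-19) and CA2/CA3 of the hippocampus (-1.0, adjusted p = 2.86e-14) were the other regions lower by at least 1. At the upper end stood the suprachiasmatic nucleus with 10.67 and 10.72, the cerebellar nucleus with 10.67 and 10.59 and the medial vestibular nucleus with 10.63 and 10.46. Both arrays of the suprachiasmatic nucleus lay above those of the medial vestibular nucleus, while the cerebellar nucleus reached both and the dorsal tegmental nucleus (10.22 and 10.68) overlapped with all 3. Slc25a18 was called higher in 22 regions and lower in 12.

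Slc25a18 moved with astrocyte transcripts over the regions. Its regional means had r = 0.73 with the median of 12 astrocyte markers and r = 0.02 with that of 10 neuronal markers (48 regions, whose points share arrays and normalization). In the medial caudate putamen 9 of the 12 astrocyte markers were lower and 1 was higher, with differences from -2.03 (Agt) to 0.47 (Slc1a2) and a median of -0.76, and the mean of the list was 10.32 and 10.28 in its arrays, against 10.24 to 12.19 in the other arrays. The fall of Slc25a18 there exceeded that of every marker on the list, and the part of astrocyte content in it was not tested. In the suprachiasmatic nucleus 10 of the 12 markers were higher, with a median of 0.77. The 3 genes with the most similar profile among 18192 others were Etnppl (r = 0.85), Cyp2j9 (r = 0.84) and G6pc3 (r = 0.83).

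The promoter window of Slc25a18 is shown because it was the only one with TATAAA among the carrier windows found. RefSeq windows of 300 bases that end shortly after the start site were found for 34 of the 44 carriers (43 windows, GRCm38.p6). Both strands were searched for the GC box GGGCGG, which was present in 37 of the 43 windows (86.0%) and in 35.7% of 32851 windows of all genes, and for TATAAA, which was present in 1 carrier window (2.33%) and in 13.6% of all windows. That 1 window belonged to Slc25a18, which held no GC box. The lack of a GC box was shared with other carriers, as 29 of the 34 held it. The window lies on chromosome 6 (chr6:120773518-120773817, plus strand), and the capitals mark TATAAA as read on the opposite strand. A match of letters is a description and shows no binding.
Slc25a18: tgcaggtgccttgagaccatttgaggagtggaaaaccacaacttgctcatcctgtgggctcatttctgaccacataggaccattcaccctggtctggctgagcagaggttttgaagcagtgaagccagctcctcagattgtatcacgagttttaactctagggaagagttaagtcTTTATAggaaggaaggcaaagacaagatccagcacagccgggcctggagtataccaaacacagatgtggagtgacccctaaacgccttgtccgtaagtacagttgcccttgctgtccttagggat

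Slc25a22 encodes the other mitochondrial glutamate carrier (GC1) and had a different profile, with r = -0.29 against Slc25a18. It was highest in CA2/CA3, where its signals of 12.08 and 12.21 lay above all arrays of the other 47 regions, and CA2/CA3 exceeded the mean of the others by 1.13 (2.18-fold, SE 0.07, adjusted p = 1.13e-20). The piriform cortex (11.51 and 11.65), the ventral subiculum (11.58 and 11.56) and the dentate gyrus (11.58 and 11.46) followed and overlapped. CA1 gave 11.21 and 11.31, below both arrays of CA2/CA3. The lowest signals were 10.47 and 10.37 in the anterior spinal cord, which was lower than the others by 0.63 (adjusted p = 1.99e-11), 10.53 and 10.40 in the posterior spinal cord and 10.29 and 10.60 in the supraoptic nucleus, and these 3 regions overlapped. The CA2/CA3 arrays also carried choroid plexus transcripts, with 8 of 9 such markers higher and a median difference of 1.80, and all 10 neuronal markers were higher with a median of 0.69. The part of either in the Slc25a22 value was not tested.

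**Figure D2:**
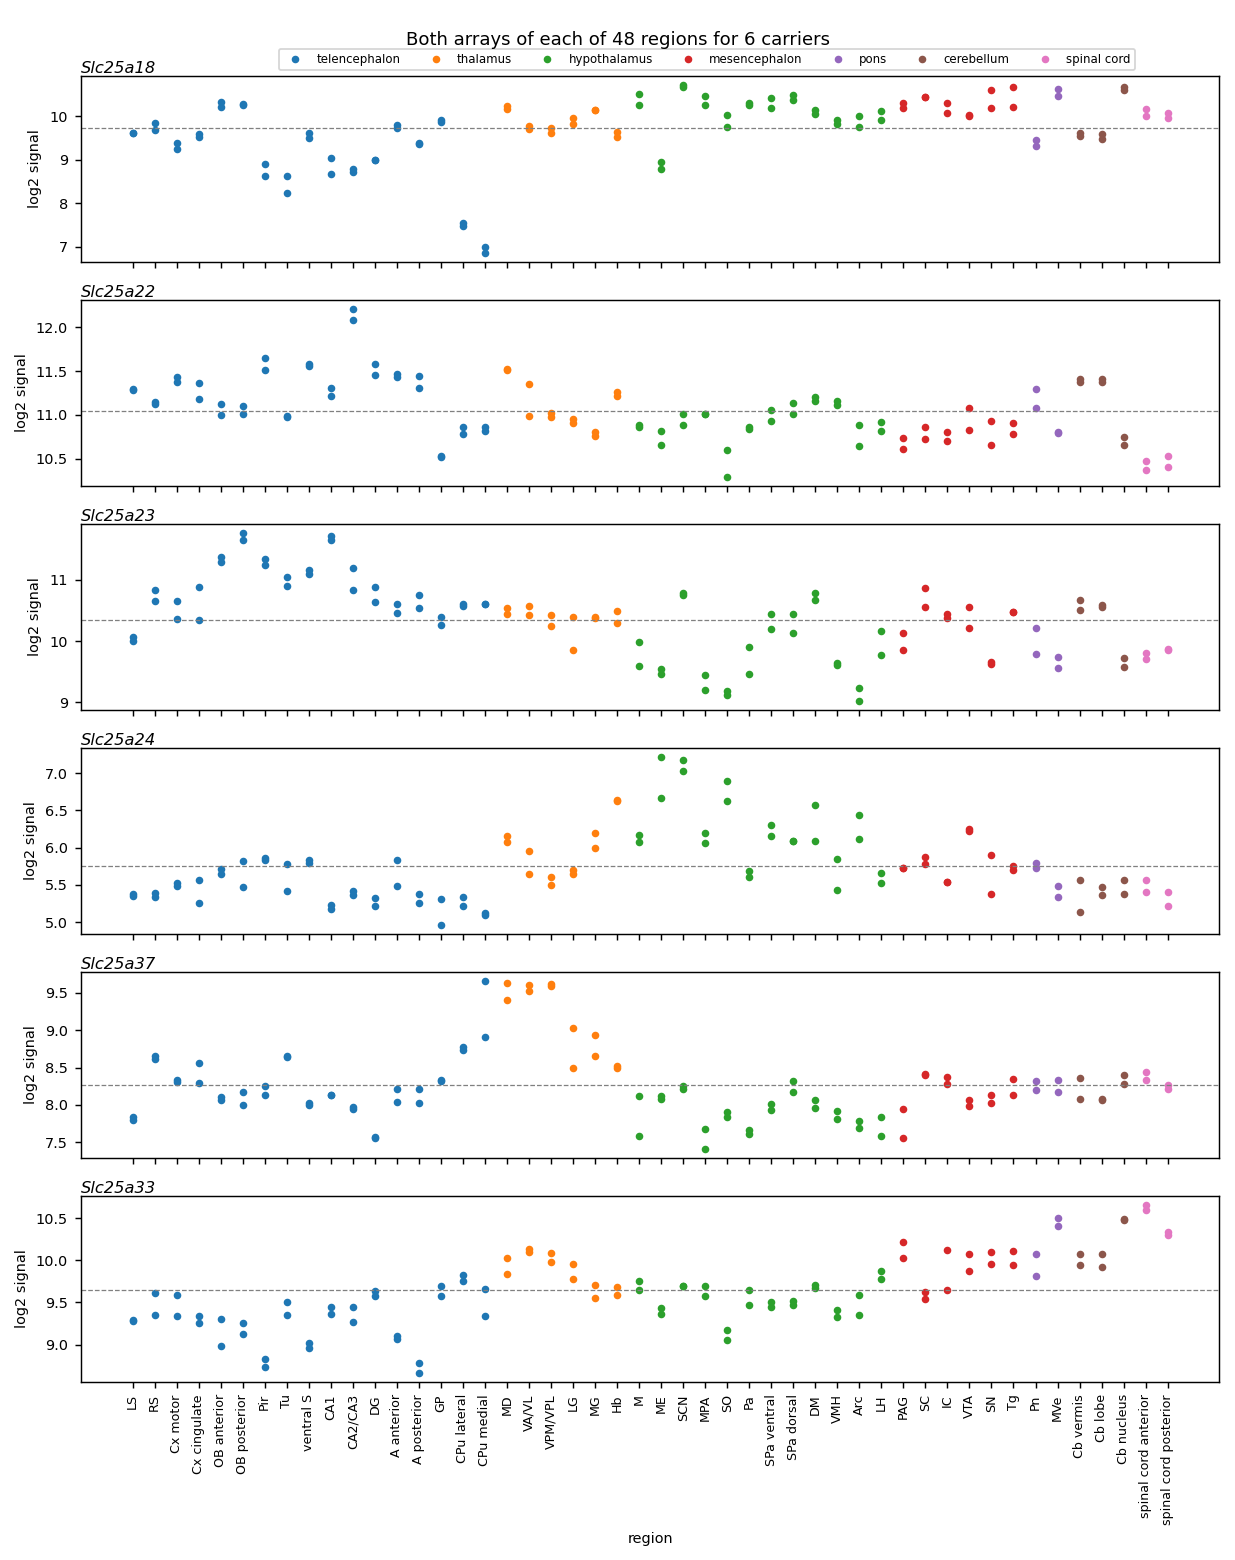
Log2 signal of both arrays (points) of each of 48 regions for 6 carriers, coloured by division, with the gene's mean over 48 regions as a dashed line. Slc25a18 drops in both parts of the caudate putamen, Slc25a22 peaks in CA2/CA3 and Slc25a37 in MD, VA/VL and VPM/VPL of the thalamus.

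The aspartate/glutamate carriers Slc25a12 (aralar) and Slc25a13 (citrin), both parts of the malate-aspartate shuttle that moves cytosolic NADH equivalents to the matrix, had profiles with r = -0.01. Slc25a13 had 7.96 and 7.88 in the cerebellar nucleus, above every other region (0.86 over the mean of the others, adjusted p = 1.84e-13), and 6.46 and 6.22 in the medial preoptic area, its lowest region by mean, which overlapped with the anterior amygdaloid complex (-0.75, adjusted p = 1.95e-11). Over the regions it had r = 0.71 with oligodendrocyte markers. Those markers were higher in the cerebellar nucleus in 13 of 13 cases (median 1.53) and lower in the medial preoptic area in 13 of 13 cases (median -1.65), and their part in the Slc25a13 values was not tested. Slc25a12 had a narrow range of 0.89 and was lowest in the supraoptic nucleus (mean 10.11).

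Among the carriers of adenine nucleotides, the ATP-Mg/phosphate carriers Slc25a23 and Slc25a24, which are regulated by calcium, had the widest profiles, and these were not alike (r = -0.27). Slc25a23 was highest in the posterior olfactory bulb (11.65 and 11.77) and in CA1 (11.66 and 11.71), which overlapped, followed by the anterior olfactory bulb (11.30 and 11.37) and the piriform cortex (11.25 and 11.34). The lowest signals were 9.24 and 9.02 in the arcuate hypothalamic nucleus, 9.19 and 9.12 in the supraoptic nucleus and 9.45 and 9.20 in the medial preoptic area. No array of the upper 4 regions overlapped with any of the lower 3. The posterior olfactory bulb exceeded the mean of the other regions by 1.39 (2.62-fold, SE 0.11, adjusted p = 1.33e-15), CA1 by 1.36 and the anterior olfactory bulb by 1.01 (adjusted p = 6.86e-11). Against the other regions of the same sampling period only, these differences were 0.70 (adjusted p = 4.42e-06), 0.67 (adjusted p = 6.20e-06) and 0.28 (adjusted p = 0.0905), so the call for the anterior olfactory bulb was lost. The arcuate nucleus (-1.24), the supraoptic nucleus (-1.22) and the medial preoptic area (-1.05) were lower, and within their periods the differences were -1.12, -1.08 and -0.89. Neuronal markers were lower in the arcuate nucleus (10 of 10, median -0.99), the supraoptic nucleus (10 of 10, median -1.31) and the medial preoptic area (9 of 10, median -0.63), and their part in the Slc25a23 values was not tested. Slc25a23 had r = 0.58 with that list, and its nearest profiles were Dlgap4 (r = 0.90), Ubald1 (r = 0.89) and Adgrl1 (r = 0.88).

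Slc25a24 was a dim probe set, with a mean of 5.76 over the regions, and it was raised in a few hypothalamic punches. It gave 7.18 and 7.03 in the suprachiasmatic nucleus, 7.22 and 6.67 in the median eminence and 6.90 and 6.62 in the supraoptic nucleus. The median eminence overlapped with both of the others, and the suprachiasmatic nucleus lay above the supraoptic nucleus. The medial caudate putamen was lowest by mean with 5.12 and 5.10 and overlapped with the globus pallidus (4.96 and 5.31). The differences were 1.37 (adjusted p = 8.96e-16), 1.22 (adjusted p = 3.07e-14) and 1.03 (adjusted p = 9.26e-12) for the 3 hypothalamic regions in that order, and -0.66 for the medial caudate putamen (adjusted p = 1.35e-06). Against regions of the same sampling period they were 1.29, 0.84, 1.20 and -0.56. The second probe set of the gene gave 0.13 in the suprachiasmatic nucleus (adjusted p = 0.143). In the same punches leptomeningeal markers were high, with median differences of 1.41 (8 of 10 higher), 1.94 (10 of 10) and 2.92 (10 of 10), and neuronal markers were low, with medians of -0.58, -1.53 and -1.31. Over the 48 regions Slc25a24 had r = 0.51 with the leptomeningeal and r = -0.57 with the neuronal list, and the part of meningeal tissue in its values was not tested.

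The ADP/ATP carriers exchange matrix ATP for cytosolic ADP. Slc25a5 (Ant2) was highest by mean in the ventral posterolateral and posteromedial thalamic nuclei (VPM/VPL), with 12.84 and 12.83, which overlapped with the cerebellar nucleus (12.89 and 12.72), and lowest in the ventromedial hypothalamic nucleus, with 11.48 and 11.32, and the 2 regions differed by its whole range of 1.43. Slc25a4 (Ant1) was also highest by mean in VPM/VPL (13.02), which overlapped with several other regions, and its range was 0.55, and the pair had r = 0.51. Slc25a31 (Ant4), best known from male germ cells, was dim throughout, with a mean of 4.48 and a range of 0.34. Slc25a3, the phosphate carrier needed for ATP synthesis, peaked in the pontine nucleus with a mean of 13.57 and was lowest by mean in the posterior amygdaloid complex with 12.75, which overlapped with the dentate gyrus and the supraoptic nucleus.

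Several of these carriers and a further pair had profiles like that of the subunits of oxidative phosphorylation. Over the 48 regions the median of 79 such genes had r = 0.82 with Slc25a4, 0.81 with Slc25a25, 0.81 with Slc25a33, 0.74 with Slc25a5 and 0.65 with Slc25a3. Slc25a33, a pyrimidine nucleotide carrier that supplies mitochondrial DNA and RNA synthesis, had the wider profile of the closest pair in the family, Slc25a25 and Slc25a33 (r = 0.86). It gave 10.60 and 10.66 in the anterior spinal cord, above every other region, 10.49 and 10.48 in the cerebellar nucleus and 10.41 and 10.50 in the medial vestibular nucleus. Its lowest signals were 8.66 and 8.78 in the posterior amygdaloid complex and 8.73 and 8.83 in the piriform cortex, which overlapped. The anterior spinal cord was higher than the other regions by 1.00 (adjusted p = 1.34e-15) and the posterior amygdaloid complex was lower by 0.95 on the log2 scale (a difference of -0.95, adjusted p = 1.12e-14). Against regions of the same sampling period these differences were 0.77 and -0.91. In the anterior spinal cord 63 of 79 oxidative phosphorylation genes were higher and 3 lower (against 16.5% and 19.6% of all probe sets), with a median of 0.36, and all 13 oligodendrocyte markers were higher with a median of 1.95. Slc25a33 had r = 0.67 with the oligodendrocyte list, whose part in its values was not tested. The genes nearest to Slc25a33 were Sdhd (r = 0.86), a subunit of succinate dehydrogenase, Fh1 (r = 0.86), fumarase, and its relative Slc25a25 (r = 0.86). Slc25a25, an ATP-Mg/phosphate carrier, had a range of 0.90 and the medial vestibular nucleus as its highest region by mean (10.43), which overlapped with the cerebellar nucleus, the pontine nucleus and the spinal cord.

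**Figure D3:**
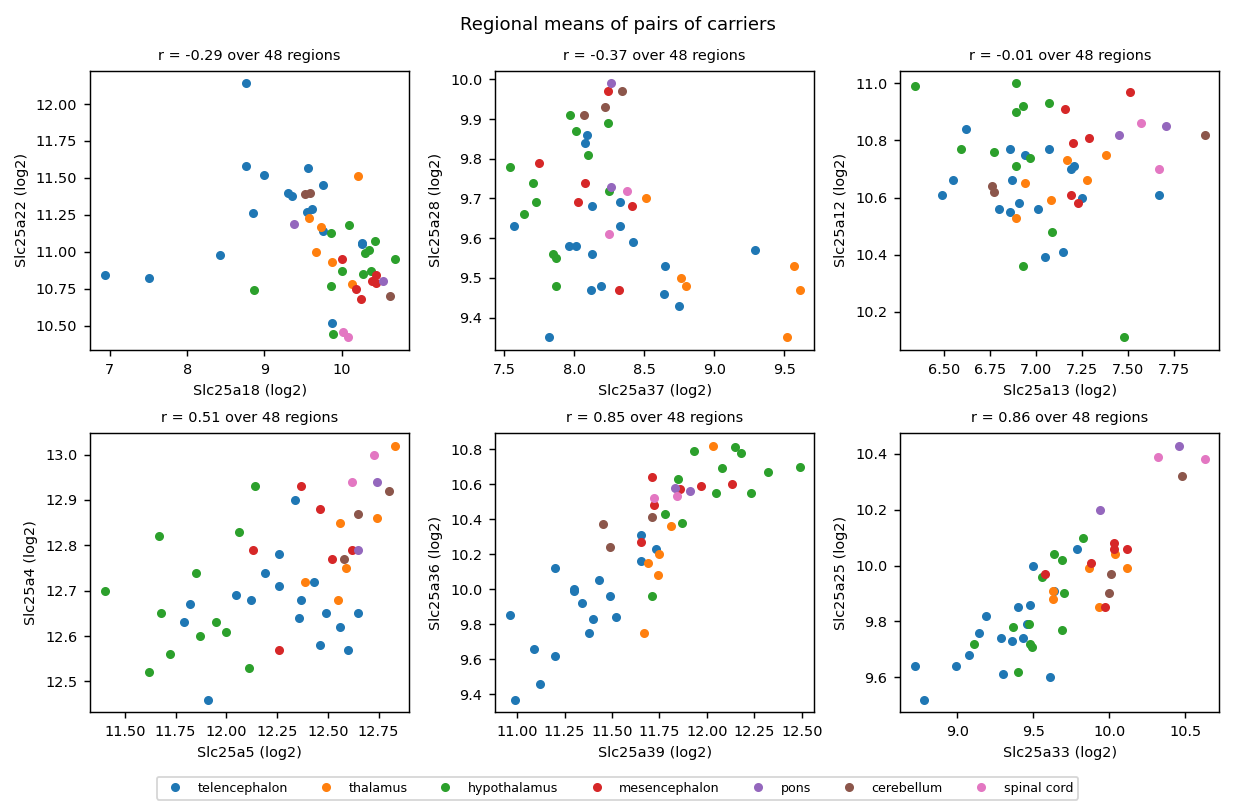
Regional means (log2) of 6 pairs of carriers over 48 regions, 1 point a region, coloured by division, with Pearson's r above each panel. The upper row and the first panel of the lower row show paralogues with r from -0.37 to 0.51, and the last 2 panels show the closest pairs of the family, at 0.85 and 0.86.

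The thalamus stood apart in Slc25a37 (mitoferrin 1), which imports iron into mitochondria for haem and iron-sulphur clusters. Its signals were 9.62 and 9.59 in VPM/VPL, 9.61 and 9.53 in the ventral anterior and ventrolateral nuclei (VA/VL) and 9.40 and 9.63 in the mediodorsal nucleus (MD), and these 3 nuclei overlapped. The lateral geniculate body (9.03 and 8.50), the medial geniculate nucleus (8.94 and 8.66) and the habenular nucleus (8.52 and 8.50) were lower than all arrays of those 3 nuclei. Outside the thalamus the medial caudate putamen came closest, although its arrays differed widely (9.66 and 8.91) and so overlapped with the 3 nuclei. The lowest regions were the medial preoptic area (7.68 and 7.41) and the dentate gyrus (7.57 and 7.56). VPM/VPL exceeded the other regions by 1.37 (2.58-fold, adjusted p = 5.66e-17), VA/VL by 1.33, MD by 1.28 and the medial caudate putamen by 1.04 (SE 0.10 each, from the spread pooled over regions). Without its first array the medial caudate putamen stood at 0.67, and without its second at 1.41. Oligodendrocytes hold much of the iron of the brain, and their markers were higher in VPM/VPL (13 of 13, median 1.54) and VA/VL (13 of 13, median 1.38), but none of 13 was called in MD (median 0.16). Over all 48 regions Slc25a37 had r = 0.32 with that list, whose part in its values was not tested. Slc25a28 (mitoferrin 2), the relative expressed more widely, did not share the pattern (r = -0.37): it was lower in MD by 0.32 on the log2 scale (a difference of -0.32, adjusted p = 8.06e-05) and in VPM/VPL by a difference of -0.20 (adjusted p = 0.0172). The genes nearest to Slc25a37 were Avpi1 (r = 0.79), Kctd17 (r = 0.79) and Nexn (r = 0.78).

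Slc25a1, the citrate carrier that exports citrate for fatty acid and sterol synthesis, was called higher in 19 of the 48 regions and lower in 20. It gave 10.94 and 10.82 in the suprachiasmatic nucleus, 10.79 and 10.93 in the anterior spinal cord, 10.65 and 11.00 in the dorsal tegmental nucleus and 10.91 and 10.74 in the habenular nucleus, and these overlapped. The dentate gyrus was lowest with 8.75 and 9.03, next to MD with 8.98 and 9.13 and the retrosplenial cortex with 9.07 and 9.05. The suprachiasmatic nucleus was higher than the others by 1.00 (adjusted p = 1.88e-15) and the dentate gyrus was lower, at -1.03 (adjusted p = 4.63e-16). Against regions of the same sampling period these differences were 0.75 and -1.11. The nearest profile was that of Lpin1 (r = 0.88), a phosphatidate phosphatase of lipid synthesis, followed by Tmco1 (r = 0.85) and Gabarap (r = 0.83). The other carriers of di- and tricarboxylates, Slc25a10 for dicarboxylates and Slc25a11 for oxoglutarate and malate, had narrow ranges of 0.70 and 0.66.

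Slc25a39, a glutathione carrier, and Slc25a36, a pyrimidine nucleotide carrier, formed the second closest pair (r = 0.85), with high hypothalamic and low striatal signals. Slc25a39 gave 12.49 and 12.48 in the median eminence, above all arrays of the other 47 regions (0.82, adjusted p = 7.49e-19), and 11.06 and 10.87 in the medial caudate putamen, its lowest region by mean, which overlapped with the lateral part (-0.74, adjusted p = 3.63e-17). Against regions of the same sampling period these differences of Slc25a39 were 0.56 and -0.60. Slc25a36 gave 10.89 and 10.75 in the habenular nucleus (0.56, adjusted p = 2.70e-06), which overlapped with the dorsomedial hypothalamic nucleus (10.94 and 10.69), and 9.18 and 9.55 in the lateral caudate putamen, its lowest region by mean, which overlapped with the posterior amygdaloid complex (-0.92, adjusted p = 3.06e-12). In the median eminence all 10 neuronal markers were lower and all 10 leptomeningeal markers higher, whose part in the Slc25a39 value was not tested. The paralogues were less close: Slc25a39 and Slc25a40, both glutathione carriers, had r = 0.61, and Slc25a33 and Slc25a36 had r = 0.44. The promoter windows of the pair are shown because the profiles were alike while the motifs found differed. The searches also covered, on both strands, the letters CCAAT (21 of 43 carrier windows, 48.8%, against 37.4% of all windows), the E-box CACGTG (8 of 43 windows, 18.6%, against 7.15%) and the cAMP response element TGACGTCA (2 of 43 windows, 4.65%, against 1.79%). The Slc25a36 window (chr9:97110992-97111291, minus strand) held 1 match each of the E-box, the cAMP response element, the CCAAT box and the GC box, in this order, and the Slc25a39 window (chr11:102407468-102407767, minus strand) held 6 GC boxes and none of the others. Capitals mark the matches on either strand.
Slc25a36: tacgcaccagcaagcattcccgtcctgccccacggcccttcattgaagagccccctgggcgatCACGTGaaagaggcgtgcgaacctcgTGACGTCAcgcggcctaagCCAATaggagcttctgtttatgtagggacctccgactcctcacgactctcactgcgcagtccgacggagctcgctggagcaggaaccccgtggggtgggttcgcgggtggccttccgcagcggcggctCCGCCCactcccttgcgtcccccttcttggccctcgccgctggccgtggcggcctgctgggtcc
Slc25a39: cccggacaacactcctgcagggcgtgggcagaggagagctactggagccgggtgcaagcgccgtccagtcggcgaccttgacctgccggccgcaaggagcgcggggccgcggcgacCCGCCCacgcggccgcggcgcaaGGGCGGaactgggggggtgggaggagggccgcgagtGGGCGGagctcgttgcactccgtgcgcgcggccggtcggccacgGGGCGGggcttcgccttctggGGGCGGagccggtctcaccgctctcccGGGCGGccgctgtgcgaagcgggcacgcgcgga

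Slc25a16 and Slc25a15 also had wide profiles, and Slc25a35 differed by at least 1 in the anterior olfactory bulb. Slc25a16, linked to coenzyme A transport, gave 9.37 and 9.13 in CA1, above every other region (1.02, adjusted p = 1.08e-09), then 9.12 and 8.87 in the medial caudate putamen, and 7.73 and 7.41 in the supraoptic nucleus, its lowest region by mean (-0.70, adjusted p = 6.32e-06). Slc25a15, the ornithine carrier, gave 9.27 and 9.34 in the anterior spinal cord (0.95, adjusted p = 3.34e-13) and 7.62 and 7.69 in the posterior amygdaloid complex (-0.74, adjusted p = 9.45e-10), while its second, dimmer probe set gave 0.12 (adjusted p = 0.159) and -0.14 (adjusted p = 0.0861) in these regions. Slc25a35, whose substrate is not settled, gave 8.02 and 7.95 in the anterior olfactory bulb, above every other region (1.01, adjusted p = 1.92e-12). Among the relatives of the uncoupling proteins, Slc25a14, Slc25a27 and Slc25a30 had ranges of 1.04, 1.29 and 1.41 and were highest by mean in the medial caudate putamen for Slc25a14 and in the ventromedial hypothalamic nucleus for Slc25a27 and Slc25a30, each overlapping with other regions. Slc25a14 had r = 0.19 with Slc25a30 and r = -0.03 with Slc25a27. Slc25a51, the NAD carrier, was highest in the dentate gyrus (mean 10.53), CA1 (10.51) and CA2/CA3 (10.43), the last 2 each overlapping with the dentate gyrus. The further probe sets of Slc25a51 had r = 0.29 and 0.50 with the chosen one over the 48 regions. Those of Slc25a27 had r = 0.25, 0.40 and 0.19, so other probe sets bear out these 2 profiles only weakly. Over all 946 pairs of carriers the median r was 0.02, 10 pairs exceeded 0.7 and 8 were below -0.6, the lowest being Slc25a17, a peroxisomal carrier, with Slc25a23 (-0.72).

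Comparison of whole divisions, with the regional means as units, placed most calls in the telencephalon. In its 17 regions 8 carriers were higher than in the other 31 regions (background 11%) and 16 were lower (background 14.1%), and without all arrays of replicate 1 the higher count was 4. The largest increase was that of Slc25a23, at 10.85 ± 0.46 in the telencephalon against 10.07 ± 0.47 elsewhere (SD, n = 17 and 31 regions; 0.78, SE 0.14, adjusted p = 2.03e-05). Slc25a16 followed, at 8.67 ± 0.28 against 8.02 ± 0.22 (0.65, adjusted p = 7.38e-10), and then Slc25a22, at 11.25 ± 0.37 against 10.92 ± 0.27 (0.33, adjusted p = 0.0055). The largest decreases were those of Slc25a18, at 9.15 ± 0.90 against 10.06 ± 0.40 (-0.91, SE 0.18, adjusted p = 1.52e-04), Slc25a1, at 9.51 ± 0.34 against 10.11 ± 0.55 (-0.60, adjusted p = 0.00129), and Slc25a36, at 9.89 ± 0.26 against 10.47 ± 0.25 (-0.58, adjusted p = 5.75e-08), although the second probe set of Slc25a36 gave -0.19 (adjusted p = 0.133). Regions of the telencephalon and the rest overlapped for each of these 6 carriers. By substrate, both glutathione carriers, both pyrimidine nucleotide carriers and all 3 carriers of di- and tricarboxylates were lower, and 3 of the 6 cofactor carriers were higher and 1 lower. Of the 79 oxidative phosphorylation genes, 32 were lower in the telencephalon and 0 higher, with a median of -0.12.

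In the 12 hypothalamic regions 4 carriers were higher (background 12.6%) and 6 were lower (background 8.01%). Slc25a24 stood at 6.24 ± 0.50 in the hypothalamus against 5.59 ± 0.32 in the other 36 regions (0.64, SE 0.12, adjusted p = 9.01e-05), Slc25a1 at 10.32 ± 0.31 against 9.76 ± 0.56 (0.56, adjusted p = 0.0129) and Slc25a39 at 12.05 ± 0.23 against 11.57 ± 0.29 (0.49, adjusted p = 9.87e-05). Slc25a23 was lower, at 9.86 ± 0.57 against 10.51 ± 0.52 (-0.65, adjusted p = 0.00468), as were Slc25a5, at 11.84 ± 0.22 against 12.43 ± 0.27 (-0.59, SE 0.08, adjusted p = 9.68e-07), and Slc25a37, at 7.90 ± 0.23 against 8.39 ± 0.48 (-0.49, adjusted p = 0.0107). The phosphate carrier Slc25a3 was also lower (-0.16, adjusted p = 0.0161). Beside them 33 of 79 oxidative phosphorylation genes were lower and 1 higher (median -0.17), and 5 of the 6 enzymes of the NADH shuttles were lower (median -0.35). Leaving out the supraoptic nucleus, median eminence and CA2/CA3, whose arrays carried high leptomeningeal, pituitary or choroid plexus markers, gave 7 carriers higher and 6 lower in the hypothalamus, a choice made after seeing the data.

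The thalamus showed 1 call, Slc25a37 (background 2.23%), at 9.13 ± 0.49 in 6 regions against 8.14 ± 0.33 in the other 42 (0.99, 1.98-fold, SE 0.15, adjusted p = 1.05e-05), and no carrier was lower (background 0.764%, with 4 lower at an unadjusted p under 0.05). In the cerebellum Slc25a29, a carrier of basic amino acids, was higher at 9.45 ± 0.20 in 3 regions against 9.08 ± 0.13 in 45 (0.37, adjusted p = 0.00257), as was Slc25a28 at 9.94 ± 0.03 against 9.64 ± 0.16 (0.29, adjusted p = 0.0468), with a background of 4.65%, and no carrier was lower (background 1.64%, with 2 lower at an unadjusted p under 0.05). Without the vermis Slc25a29 stood at 0.32 (adjusted p = 0.114) and without the lobe at 0.30 (adjusted p = 0.21), and its second probe set gave 0.08 (adjusted p = 0.505). Slc25a28 stood at 0.30 without the vermis (adjusted p = 0.269), 0.31 without the lobe (adjusted p = 0.336), 0.28 without the nucleus (adjusted p = 0.101), 0.26 without replicate 1 (adjusted p = 0.143) and 0.29 with trend and robust estimation (adjusted p = 0.0574). Both calls were lost in the settings listed, while the differences stayed of like size, other than that of the second probe set. The Slc25a29 call held without the nucleus, whose mean (9.22) was below those of the vermis (9.54) and the lobe (9.59). No carrier was called in the mesencephalon (background 0.0444% higher, 0% lower) or the spinal cord (background 0.664% higher, 0.0844% lower) by limma on regional means. At an unadjusted p under 0.05 there were 4 higher and 1 lower in the mesencephalon and 7 higher and 3 lower in the spinal cord, and the same contrasts fitted on single arrays called 18 and 8 in the mesencephalon and 17 and 11 in the spinal cord. The backgrounds in this paragraph belong to the adjusted calls on regional means. No share of all probe sets is given for the unadjusted or single-array counts, so these show nothing particular to carriers.

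**Figure D4:**
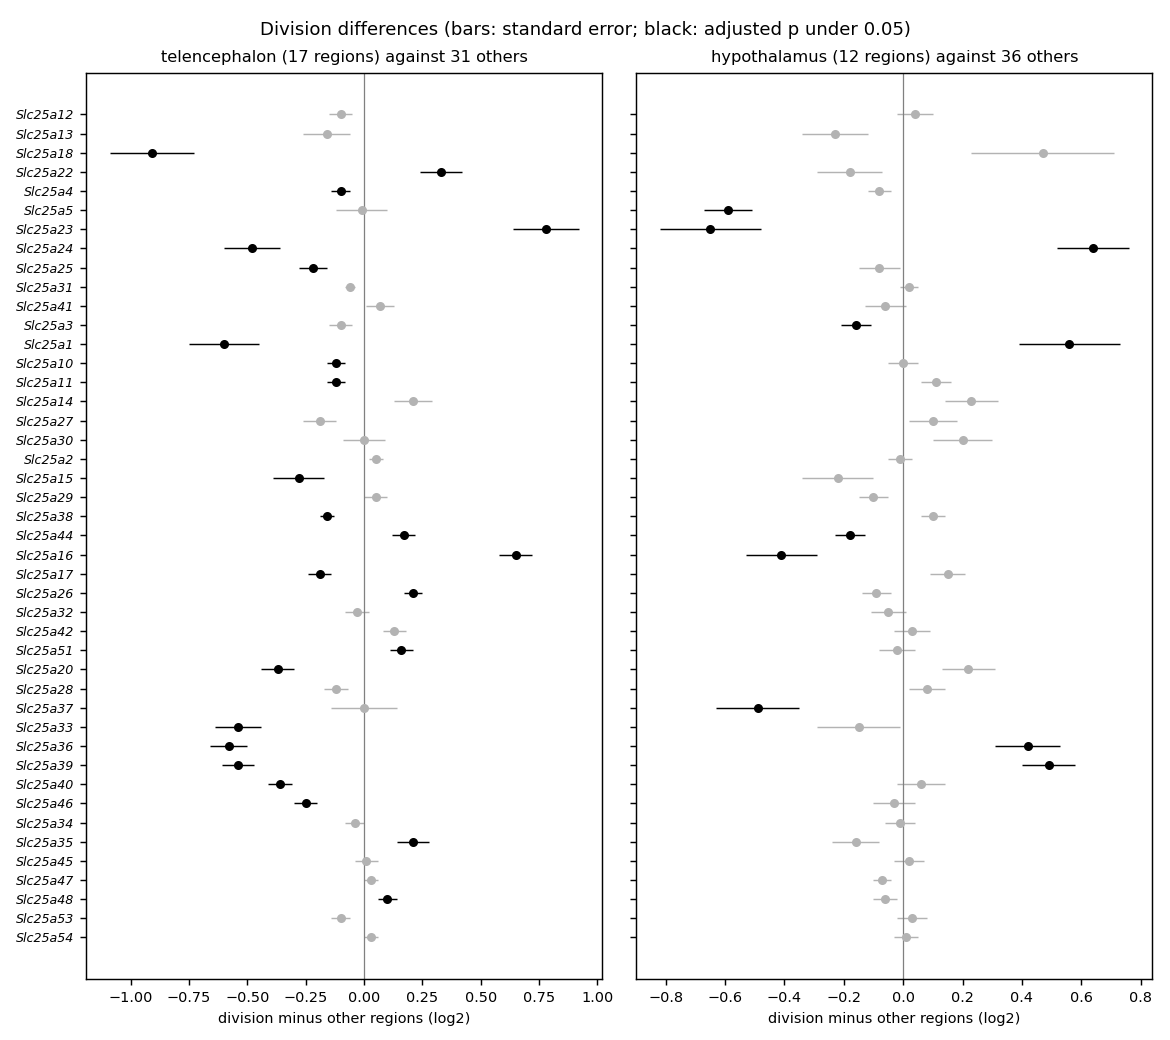
Difference of the telencephalon (left) and hypothalamus (right) from the other regions for each carrier (log2, bars are standard errors, black points have an adjusted p under 0.05). Slc25a18 lies furthest to the left in the telencephalon at -0.91, and Slc25a23 is at 0.78 in the telencephalon and -0.65 in the hypothalamus.

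Counted by region, carriers were called higher most often in the pontine nucleus, the medial vestibular nucleus and the anterior spinal cord. The shares of all probe sets beside the counts were not matched for signal, and the carriers were brighter than most probe sets. In the pontine nucleus 20 of 44 were higher and 6 lower (45.5% and 13.6%, against 19.5% and 15.2% of all probe sets), and in the medial vestibular nucleus 18 were higher and 7 lower (40.9% and 15.9%, against 12.2% and 13.2%). The anterior spinal cord had 17 higher and 9 lower (38.6% and 20.5%, against 16.5% and 19.6%). The dorsal tegmental nucleus had 15 higher and 3 lower (34.1% and 6.82%, against 13.6% and 11.5%), and the cerebellar nucleus 15 and 11 (34.1% and 25.0%, against 14.9% and 14.5%). The ventral tegmental area had 14 higher and 0 lower (31.8% and 0.0%, against 12.7% and 11.2%). The pontine, medial vestibular, dorsal tegmental and cerebellar nuclei and the anterior spinal cord share the same sampling period, that of 18 regions. Counts against regions of that period only are not given, and the part of the period in these counts was not tested. Lower calls outnumbered higher ones in the supraoptic nucleus, with 12 higher and 19 lower (27.3% and 43.2%, against 20.9% and 20.3%), the dentate gyrus, with 5 higher and 18 lower (11.4% and 40.9%, against 13.6% and 17.8%), and the posterior amygdaloid complex, with 5 higher and 17 lower (11.4% and 38.6%, against 15.6% and 17.4%). The median shift of the 44 carriers was small in all of these regions, at 0.15 in the pontine nucleus and -0.14 in the posterior amygdaloid complex, against 0.04 and 0.03 over all probe sets. In the medial vestibular nucleus 66 of 79 oxidative phosphorylation genes were higher as well (median 0.38).

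The retina arrays carried transcripts of other tissues besides those of photoreceptors. Photoreceptor markers were higher (7 of 7, median 4.95), but so were skeletal muscle markers (9 of 10, median 5.86), whose list mean was 12.03 and 11.87 in the retina arrays against 6.32 to 7.54 in the 96 arrays of the regions, and anterior pituitary markers (7 of 7, median 5.15), whose list mean was 12.48 and 11.62 against 6.71 to 9.24. The part of muscle and pituitary RNA in the retina values was not tested. The pituitary arrays had all 7 anterior pituitary markers higher (median 7.08). The pineal arrays had both melatonin synthesis genes (median 4.62) and 4 of 7 photoreceptor markers higher, and also 8 of 9 choroid plexus and 9 of 10 leptomeningeal markers (medians 3.08 and 2.28), whose part in the pineal values was not tested.

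Differences of at least 2 from the 48 regions were found in 3 carriers. One side of each comparison had a mean signal of 7.00 or less, below the median of 7.41 over all probe sets, so only differences on the log2 scale are given for them. Slc25a18 was low in all of them: the retina arrays gave 5.75 and 6.67, the pituitary arrays 6.59 and 6.63 and the pineal arrays 6.47 and 6.12, against 6.93 to 10.69 over the regional means of the 48 regions. The differences were -3.52 for the retina, -3.13 for the pituitary and -3.44 for the pineal (SE 0.11, limma adjusted p of 6.14e-37, 8.53e-34 and 3.47e-36). Astrocyte markers were lower there too, with 9, 12 and 12 of 12 lower and medians of -1.45, -2.83 and -2.25, and their part in the value was not tested. Slc25a24 was raised to 9.46 and 8.96 in the retina (3.46), to 8.94 and 8.85 in the pituitary (3.14) and to 7.13 and 6.73 in the pineal (1.17), against regional means of 5.11 to 7.10. The pineal arrays overlapped with these means, and the second probe set gave 0.23 there (adjusted p = 0.0747). Slc25a35 was raised to 9.11 and 9.85 in the retina (2.48, adjusted p = 1.17e-28) and to 9.92 and 9.94 in the pineal (2.93, adjusted p = 4.68e-32), above its regional means of 6.59 to 7.98 and above the pituitary with 8.01 and 7.73.

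Of the 44 carriers, 16 were higher and 17 lower in the retina (background 28.4% and 41.1%), 16 higher and 15 lower in the pituitary (background 27.3% and 22.9%) and 18 higher and 11 lower in the pineal (background 28.3% and 23.1%). With a difference of at least 1 the counts were 3 higher and 5 lower in the retina (background 9.55% and 7.95%), 2 and 2 in the pituitary (background 4.87% and 5.99%) and 4 and 3 in the pineal (background 6.27% and 6.48%). Without retina replicate 1 the retina had 5 higher by at least 1, and without pituitary replicate 2 the pituitary had 1 lower by at least 1. Slc25a20, which carries acylcarnitines to fatty acid oxidation in the matrix, was higher in each tissue, with 9.93 and 10.33 in the retina (1.18), 9.96 and 9.99 in the pituitary (1.02) and 10.15 and 10.01 in the pineal (1.13), all above its highest regional mean of 9.64. Slc25a33 was raised in the pineal, at 11.46 and 11.41 against at most 10.63 in a region (1.79, 3.45-fold, adjusted p = 2.26e-25), whereas it was lower in the pituitary, with 8.88 and 8.62 (-0.90). In the retina it was also called lower (-0.28), but the arrays differ, at 9.03 and 9.71. The higher retina array lies above the Slc25a33 mean of 9.65 over the 48 regions. Slc25a1 and Slc25a12 were lowered in the pineal, to 8.35 and 8.49 (-1.48, adjusted p = 8.36e-22) and to 9.49 and 9.31 (-1.29, adjusted p = 4.04e-22), both below all regional means. In the retina the carriers lower by at least 1, besides Slc25a18, were Slc25a14 (9.01 and 9.08, -1.40), Slc25a23 (8.67 and 9.22, -1.40), Slc25a46 (10.06 and 9.12, -1.11), an outer membrane protein that shapes mitochondria, and Slc25a22 (9.98 and 10.10, -1.0). The Slc25a46 value rests on arrays that differ, at -1.58 without retina replicate 1 and -0.64 without retina replicate 2. Slc25a23 was also lower in the pituitary (9.41 and 9.12, -1.08), where 61 of 79 oxidative phosphorylation genes were lower (median -0.49).

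**Figure D5:**
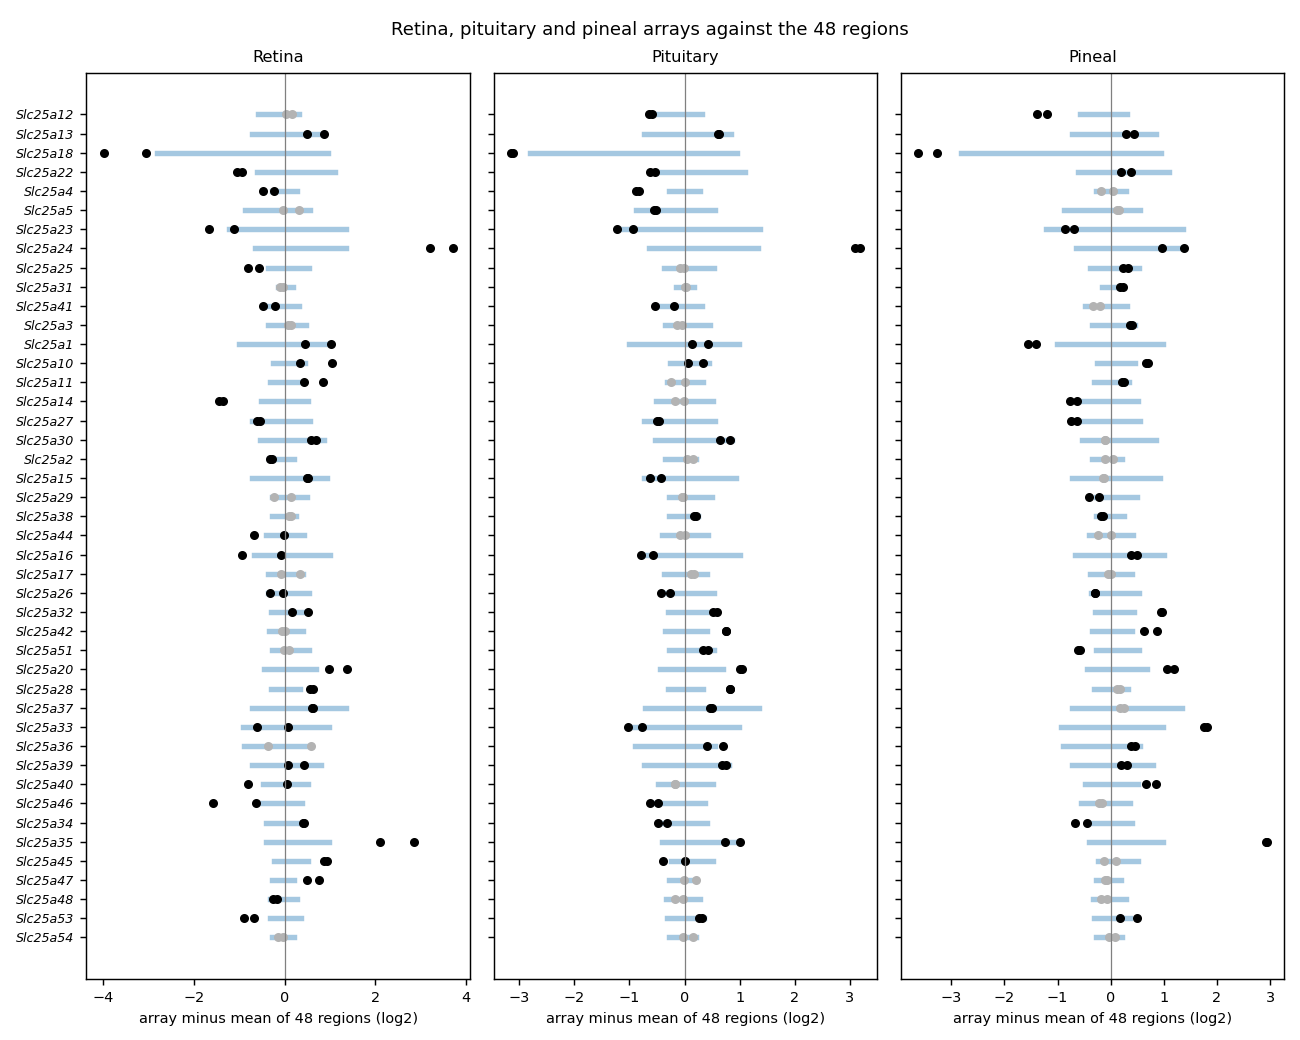
Each array of the retina, pituitary and pineal minus the mean of the 48 regions (log2, points, black where the adjusted p is under 0.05) for the 44 carriers, with the span of the 48 regional means as a blue bar. Slc25a18 lies left of the bar in each tissue, Slc25a24 lies right of it in the retina and pituitary, and Slc25a35 lies right of it in the retina and pineal.

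Genes that work beside the carriers were read from lists of their own. Of all probe sets, 11% were called higher and 14.1% lower in the telencephalon, 12.6% and 8.01% in the hypothalamus and 27.3% and 22.9% in the pituitary, and several counts from these short lists lie near those shares. Of the 8 genes for import of carriers into the inner membrane, 1 was higher and 2 lower in the telencephalon, 2 higher and 3 lower in the hypothalamus, and 1 higher and 7 lower in the pituitary (median -0.60). Tomm70a, an import receptor for carriers, had the widest profile of that list, spanning 2.42 between the medial caudate putamen (mean 12.73) and the supraoptic nucleus (10.31). Of the 6 enzymes of the NADH shuttles, 5 were lower in the pituitary and 5 in the hypothalamus, and Got1, the cytosolic aspartate aminotransferase, spanned 2.23 between the medial vestibular nucleus (12.98) and the median eminence (10.75). The outer membrane channels Vdac1, Vdac2 and Vdac3 were all lower in the pituitary (median -0.77). Of 10 other inner membrane transporters, 3 were higher and 5 lower in the pituitary, with Mpc1, part of the pyruvate carrier, highest by mean in VA/VL (12.21) and lowest in the median eminence (10.46).

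Where a carrier had further probe sets, these were compared with the chosen one over the 48 regions. Of 49 further probe sets 30 had r above 0.5 and 7 had r below 0, and of the 34 with a mean of at least 7 there were 25 with r above 0.5. All 7 further probe sets of Slc25a5 had r from 0.93 to 1.00, and those of Slc25a39 gave 0.94, 0.77, 0.90 and 0.02. Slc25a18, Slc25a22, Slc25a23, Slc25a37, Slc25a1, Slc25a33 and Slc25a16 had 1 probe set each, so their profiles have no such check. Several of the chosen probe sets, among them those of Slc25a5 and Slc25a39, are of a type whose probes may also match other transcripts.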

How the data were processed

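Total RNA from 51 regions (2 arrays each) was hybridized by the authors to Affymetrix mouse genome arrays, and the deposited values are log2 signals that the authors normalized with RMA (version not given in the sources used here). Of 45101 probe sets 64 controls were left out. Symbols were read from the annotation table GEO holds for this array (34945 probe sets with a single gene, 932 with several, 9160 with none). Linear models were fitted to all 45037 probe sets with limma 3.58.1 (R 4.3.3), with Benjamini-Hochberg adjustment and a threshold of 0.05. The 96 arrays of the 48 regions, 1 coefficient per region, gave the F-test and each region against the other 47 (residual degrees of freedom 48, median residual SD 0.119). Divisions were tested on the 48 regional means, and retina, pituitary and pineal in a fit of the arrays of all 51 regions. Standard errors of single regions rest on the spread between arrays pooled over all regions. The study states that the whole sampling was done again for the second array, so p-values of the fits on arrays measure the spread between pools of mice. Those of the divisions measure the spread between regions. Values in full were given for the 12 carriers with the largest range that passed the F-test, for up to 3 called carriers in each direction per division and up to 5 in each direction with a difference of at least 1 per separate tissue, and for paralogue pairs. Carriers mentioned besides these were chosen with their values known. The members, marker and pathway lists were chosen with earlier results of these data known. Regional profiles were compared by Pearson's r over 48 regional means, as a description. Alternatives were another normalization, an intensity filter, trend and robust variance estimation, a replicate block, sampling periods, second probe sets and leaving out arrays or regions. The fits were tested on simulated data.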

Additional observations from a re-analysis of the deposited data

How the results depend on the processing

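The 71 named differences were recomputed under 702 alternatives. Of these alternatives 688 kept their direction and side of the threshold, 14 were no longer called and none turned round. All 71 were picked from these same data among the differences called in the main fit. None could therefore become called, and smaller differences are not covered. Of these 14, 6 were lost with the second probe set, a setting open only to carriers with further probe sets. The other alternatives reuse the chosen probe set, so the total says little about agreement between probe sets. Among 797 recomputed counts 40 moved by more than 1.5 times, and the cause was not tested.

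Against regions of the same sampling period, 8 pairs of carrier and region were higher and 12 lower by at least 1, beside 14 and 8 against all other regions. In the pituitary, cyclic loess left 1 carrier higher and 1 lower by at least 1, and the second probe set left 1 higher. Division contrasts fitted on single arrays, which take the spread between arrays and not between regions, called more carriers: 12 higher and 15 lower in the hypothalamus, 15 and 7 in the thalamus, 18 and 8 in the mesencephalon, 16 and 9 in the cerebellum and 17 and 11 in the spinal cord. With the replicate block the same fits gave 12 and 16 in the hypothalamus, 14 and 7 in the thalamus, 18 and 8 in the mesencephalon, 16 and 9 in the cerebellum and 16 and 11 in the spinal cord. The share of all probe sets called by these fits on single arrays is not given, so the counts show nothing particular to carriers. The second probe set gave 2 higher in the thalamus, and 1 higher and 1 lower in the cerebellum. In the cerebellum trend and robust estimation gave 1 higher, and cyclic loess and the sampling period as a block each gave 1 lower. Without the supraoptic nucleus, median eminence and CA2/CA3, chosen after seeing the data, 7 carriers were higher in the hypothalamus.

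Leaving out single arrays or regions gave 2 to 5 carriers higher by at least 1 in the retina (5 without retina replicate 1), 1 to 3 lower by at least 1 in the pituitary (1 without pituitary replicate 2) and 4 to 9 higher in the telencephalon (4 without all arrays of replicate 1). In the cerebellum 0 to 2 were higher (0 without the vermis or the lobe, 1 without the nucleus or replicate 1) and 0 to 1 lower (1 without replicate 1), and in the spinal cord 0 to 1 were higher (1 without replicate 1). Replicate numbers were not taken to pair the samples: arrays with the same number had a mean r of 0.00853 between their deviations over 1128 pairs of regions. Positive and negative r of single pairs cancel in this mean, so it cannot exclude pairing within part of the arrays. With the replicate number as a block, 43 carriers passed the F-test and 404 pairs of carrier and region were higher and 389 lower.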
